A study of Homo sapiens with 6 samples.

Results

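The genes described here are 44 genes of the DNA damage response, most of them factors of homologous recombination and of the Fanconi anemia pathway, with a few checkpoint kinases, PARP enzymes and mismatch or uracil repair genes. They were chosen by name, with earlier results of these data known, and each was found once among the 60676 genes of the count table. RNA-seq was done on TC71, a cell line from Ewing sarcoma (a bone and soft tissue tumor driven by a fusion of EWSR1 with an ETS family gene). The cells were polyclonal lines, selected with puromycin, that carried a lentiviral doxycycline (Dox) inducible construct for GFP and a short hairpin RNA. The hairpin was either a non-targeting control (shNTC+Dox, 3 libraries) or one against EHD1, an endocytic recycling protein (shEHD1+Dox, 3 libraries). All 6 libraries received 0.5 µg/ml Dox for 3 days, and cells without Dox were not analysed here, so a response to Dox that both lines share cannot be seen. The label of the knockdown libraries does not make clear which of the EHD1 hairpins was used, and 1 cell line stands for the tumor. Nothing in the sources used here says that the libraries came from separate cultures, so p-values measure the spread between these libraries.

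Homologous recombination repairs a double-strand break by copying the intact sister chromatid, mainly in S and G2 phase. MRE11, RAD50 and NBN bind the break, EXO1, and DNA2 with BLM, cut back a strand, and BRCA2 with PALB2 and the genes of strand exchange prepare the single strand to invade the intact copy. The Fanconi anemia proteins unhook DNA crosslinks and hand the break to this pathway, and their central step is the attachment of ubiquitin to FANCD2 and FANCI by a core complex. Ewing sarcoma cells are known for their sensitivity to PARP inhibitors and for high SLFN11, a protein that blocks stressed replication forks.

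Total counts per library ran from 22711235 to 30582187, and every member was well covered, with at least 77 counts in each library. EHD1 was at 27.1, 28.0 and 26.4 CPM (counts relative to library size, after TMM normalization) in shNTC+Dox and at 7.55, 7.15 and 9.37 CPM in shEHD1+Dox, which left 29.6% of the control mean. Libraries of 1 group were further apart than counting noise, with a chi-square per degree of freedom of 5.64 to 27.9 within groups and 33.1 to 64.9 between them. The shNTC+Dox replicate 3 library stood apart from the other controls on the second principal component, and it held the highest level of 27 of the 44 members. How often it did so over all genes tested was not counted, so this may not be particular to the members. Ewing sarcoma markers summed to 3063 to 3095 CPM in shNTC+Dox and 2879 to 3001 CPM in shEHD1+Dox, with CCND1 the largest part. Of these 10 markers BCL11B fell by 0.75 and STEAP1 by 0.43 on the log2 scale (adjusted p = 0.00120 and 0.00443), CD99 rose by 0.33 (adjusted p = 0.0293) and the others did not pass. The sum of 5 fibroblast genes was 191 to 237 CPM in shNTC+Dox and 359 to 417 CPM in shEHD1+Dox, carried by COL3A1, while COL1A2 was at 0.22 and 0.36 CPM and DCN fell. The sums of 4 epithelial genes were 27.2 to 31.5 and 34.1 to 40.2 CPM, and those of the blood and endothelial genes were at most 0.40 and 0.11 CPM in any library. The part of these genes in the results was not tested.

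Some of the repair genes were lower in shEHD1+Dox, and most did not pass the test. Of the 44 members, all of which were tested, 14 fell and 1 rose at an adjusted p under 0.05 in edgeR's quasi-likelihood test, and 29 did not pass. The share that fell was 31.8%, against 8.75% of all 16785 genes tested, and the share that rose was 2.27%, against 8.59%. As the members were chosen with earlier results of these data known, this contrast is limited. The most negative log2 fold change of a member was -0.90, so no member reached a 2-fold fall. Of all genes tested 1.74% fell at least 2-fold at an adjusted p under 0.05. None among 44 members is near that share. Over the members the median log2 fold change came to -0.17, and over all genes tested to 0.0008. Levels in the 3 shEHD1+Dox libraries lay below those of all 3 shNTC+Dox libraries for 21 members (19.4% of all genes tested did so) and above them for 4 members (19.9% of all genes tested). The log2 fold change was below 0 for 37 members, whether or not they passed (49.9% of all genes tested were below 0), of which ATM, BRCA2, FANCD2 and PARP1 were slightly above 0 when libraries were scaled by their size alone. When 1 library was left out, the number of members that fell was 5 (shEHD1+Dox replicate 1), 6 (shEHD1+Dox replicate 3) or 11 to 13 (each of the other libraries). Without shNTC+Dox replicate 3, the library that stood apart, 13 members fell and the median was -0.13.

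**Figure D1:**
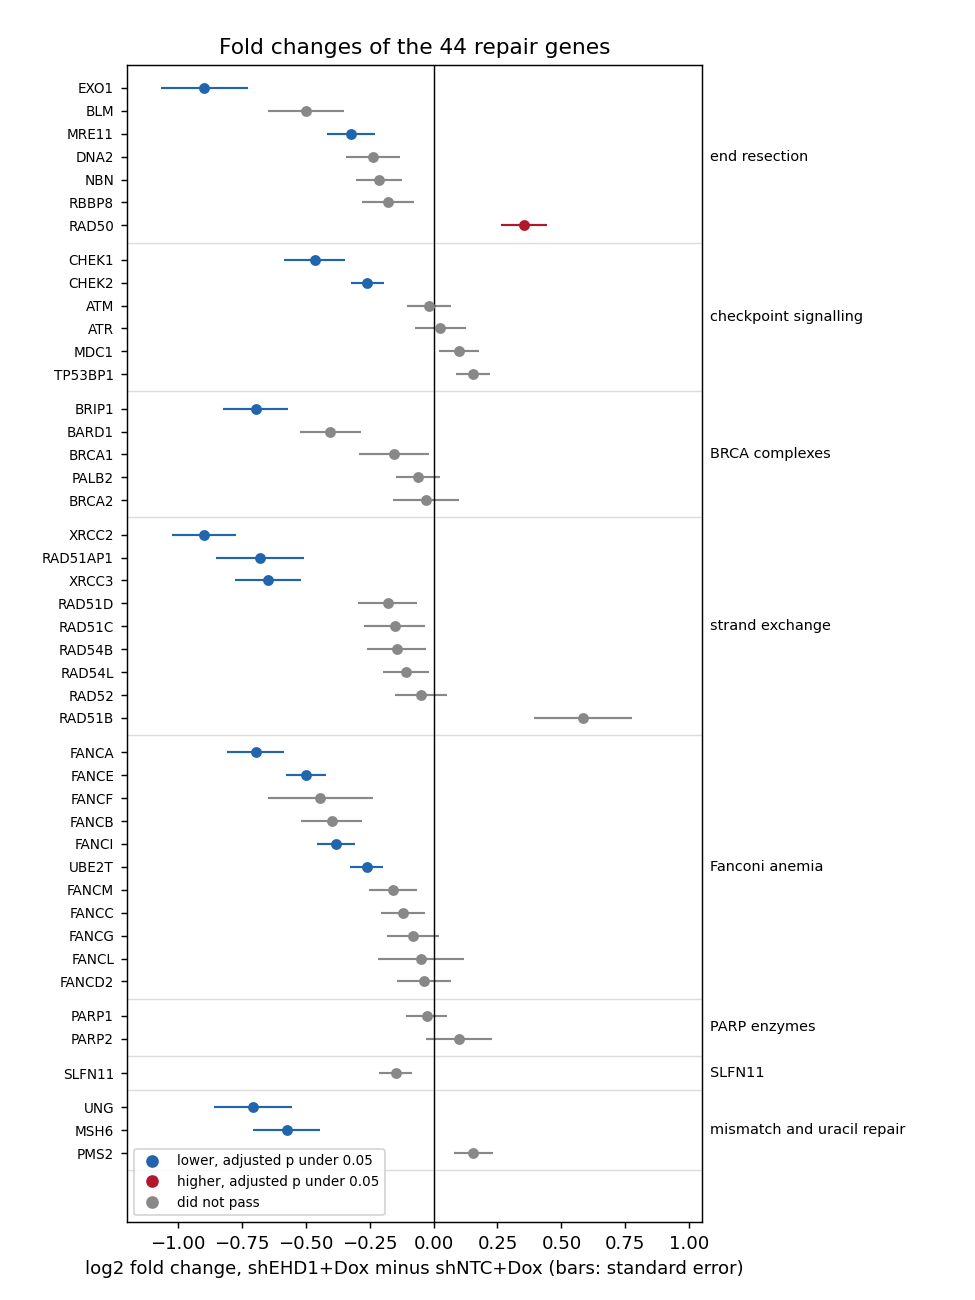
Log2 fold change of each of the 44 repair genes (x axis, shEHD1+Dox minus shNTC+Dox), grouped by role. Points are estimates from edgeR and bars are standard errors (n = 3 libraries per group). Blue marks the 14 genes that fell, red the 1 that rose and grey the 29 that did not pass. All 11 Fanconi anemia genes lie left of 0 (49.9% of all genes tested were below 0). FANCD2 lies only just left of 0, and not with scaling by library size alone (0.0014).

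Per length of exon, the members covered a wide range of levels. PARP1, which senses strand breaks, had the highest level of the 44 in shNTC+Dox at 128 RPKM (CPM divided by the exon length, in kilobases, of the canonical transcript). UNG, which removes uracil from DNA, followed at 96.6 RPKM, then UBE2T at 71.6 and SLFN11 at 67.2 RPKM. RAD51D and FANCF were the lowest at 1.41 and 1.45 RPKM. The value of RAD51D rests on a canonical transcript of 9966 exon bases. In CPM it was at 14.1 in shNTC+Dox, above RAD51B (7.06) and FANCF (4.78). These levels have no bearing on the fold changes below, which compare a gene with itself.

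Among the 7 genes of end binding and resection, 2 fell, 1 rose and 4 did not pass, with a median log2 fold change of -0.24. The shares were 28.6% that fell and 14.3% that rose, against 8.75% and 8.59% of all genes tested. EXO1, the exonuclease of long-range resection (ENSG00000174371, chromosome 1 from 241847967 to 241895148, plus strand, hg38), had 64.3, 60.9 and 91.2 CPM in shNTC+Dox and 36.4, 45.4 and 34.5 CPM in shEHD1+Dox. The groups did not overlap, and the highest control was the library that stood apart. EXO1 fell to 53.7% of the control mean (log2 fold change -0.90, standard error 0.17, adjusted p = 0.0113). Without shEHD1+Dox replicate 1 the adjusted p was 0.0502. MRE11, the nuclease that starts resection (ENSG00000020922, chromosome 11 from 94415570 to 94493885, minus strand), had 74.5, 71.3 and 89.9 CPM in shNTC+Dox and 62.2, 65.0 and 61.3 CPM in shEHD1+Dox. Its fall was smaller (log2 fold change -0.32, standard error 0.09, adjusted p = 0.0464). This call was lost without shNTC+Dox replicate 1 and without each of the shEHD1+Dox libraries, with adjusted p-values of 0.0724 to 0.143.

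RAD50, the long ATPase that holds both DNA ends together with MRE11, was the member that rose. RAD50 (ENSG00000113522, chromosome 5 from 132556019 to 132646349, plus strand) had 167, 160 and 150 CPM in shNTC+Dox and 196, 229 and 186 CPM in shEHD1+Dox. The groups did not overlap, and RAD50 rose (log2 fold change 0.35, standard error 0.09, adjusted p = 0.0278). Most of its exon bases, 91.0%, are shared with AC116366.3, a gene on the same strand which held only 20 to 33 counts per library. With both genes summed the log2 fold change was again 0.35 (adjusted p = 0.0277). The call was lost when replicate 1 or 2 of shNTC+Dox or replicate 1 or 2 of shEHD1+Dox was left out, with adjusted p-values of 0.0529, 0.0661, 0.0682 and 0.0548.

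The other resection genes did not pass. BLM, a helicase of resection and of junction dissolution, had 43.5, 40.8 and 53.6 CPM in shNTC+Dox and 28.4, 39.6 and 29.7 CPM in shEHD1+Dox, a log2 fold change of -0.50 (adjusted p = 0.0501). It lay just outside the threshold and passed without shEHD1+Dox replicate 2 (adjusted p = 0.0226). NBN, the third subunit of the MRE11 complex, had a log2 fold change of -0.21 (95% interval -0.42 to -0.0071). DNA2, the other resection nuclease, had -0.24 (-0.48 to 0.0024) and RBBP8, the cofactor of MRE11 also called CtIP, had -0.18 (-0.41 to 0.054).

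Of the 6 checkpoint genes, both effector kinases fell (33.3%, against 8.75% of all genes tested) and the other 4 did not pass. CHEK1 (ENSG00000149554, chromosome 11 from 125625163 to 125676255, plus strand), the kinase that holds S phase and mitotic entry when forks stall, had 60.1, 58.6 and 74.9 CPM in shNTC+Dox and 41.5, 52.4 and 46.3 CPM in shEHD1+Dox. The groups did not overlap, and CHEK1 fell by 0.46 on the log2 scale (standard error 0.12, adjusted p = 0.0296). CHEK2 (ENSG00000183765, chromosome 22 from 28687743 to 28742422, minus strand), the kinase that ATM activates at breaks, had 56.1, 56.0 and 54.8 CPM in shNTC+Dox and 45.3, 46.9 and 47.2 CPM in shEHD1+Dox. Its libraries were close together within each group, and CHEK2 fell by 0.26 on the log2 scale (standard error 0.06, adjusted p = 0.0270). The CHEK1 call was lost without shEHD1+Dox replicate 1 or 3 (adjusted p = 0.110 and 0.0957). That of CHEK2 was lost when any 1 library except shNTC+Dox replicate 3 was left out, with adjusted p-values of 0.0508 to 0.119.

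The kinases that act above them had fold changes near 0. ATM, the break-activated kinase, had 148, 149 and 122 CPM in shNTC+Dox and 137, 142 and 136 CPM in shEHD1+Dox, for a log2 fold change of -0.02 (95% interval -0.21 to 0.18). For ATR, the kinase of stalled forks, the value was 0.03 (-0.20 to 0.25). The mediators that gather at breaks were a little above 0, MDC1 at 0.10 (-0.076 to 0.28) and TP53BP1, which restrains resection, at 0.15 (0.0063 to 0.30, adjusted p = 0.139). TP53BP1 was higher in all 3 shEHD1+Dox libraries, and 36.0% of its exon bases are shared with TUBGCP4 on the opposite strand.

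In the BRCA complexes 1 of 5 genes fell, against 8.75% of all genes tested, and 4 did not pass. With only 5 genes, this count cannot decide whether the group differs from that share. BRIP1, the helicase that binds BRCA1 and is also a Fanconi anemia protein (ENSG00000136492, chromosome 17 from 61679139 to 61863559, minus strand), had 50.2, 50.3 and 61.4 CPM in shNTC+Dox and 29.3, 39.4 and 31.3 CPM in shEHD1+Dox. All shEHD1+Dox libraries were below all controls, and BRIP1 fell to 61.8% of the control mean (log2 fold change -0.70, standard error 0.13, adjusted p = 0.00785). BRCA1 itself, a ubiquitin ligase, had 62.7, 58.3 and 69.4 CPM in shNTC+Dox and 51.5, 70.4 and 49.1 CPM in shEHD1+Dox, so its groups overlapped, with shEHD1+Dox replicate 2 the highest of the 6. The log2 fold change of BRCA1 was -0.16 (95% interval -0.47 to 0.16). BARD1, the obligate partner of BRCA1, lay just outside the threshold at -0.40 (adjusted p = 0.0502), and passed when either shNTC+Dox replicate 2 (adjusted p = 0.0465) or shEHD1+Dox replicate 2 (0.0329) was left out. BRCA2 had a log2 fold change of -0.03 (-0.32 to 0.26) and PALB2, which joins BRCA1 to BRCA2, had -0.06 (-0.25 to 0.13).

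Among the 9 genes of strand exchange, 3 fell (33.3%, against 8.75% of all genes tested) and 6 did not pass. XRCC2, which forms a complex with RAD51B, RAD51C and RAD51D (ENSG00000196584, chromosome 7 from 152644776 to 152676193, minus strand), had 38.3, 32.2 and 37.4 CPM in shNTC+Dox and 17.7, 22.9 and 17.4 CPM in shEHD1+Dox. With 53.7% of the control mean left, XRCC2 and EXO1 had the most negative fold changes of the 44 members (XRCC2: log2 fold change -0.90, standard error 0.13, adjusted p = 0.00246). XRCC3, which pairs with RAD51C (ENSG00000126215, chromosome 14 from 103697609 to 103715504, minus strand), had 42.0, 40.7 and 53.6 CPM in shNTC+Dox and 25.0, 32.1 and 29.9 CPM in shEHD1+Dox. It fell by 0.65 on the log2 scale (standard error 0.13, adjusted p = 0.0120). Since 34.2% of its exon bases lie opposite KLC1 and the library kit does not mark strand, some of its reads could come from that gene, whose own log2 fold change was 0.02. RAD51AP1, which stimulates strand invasion (ENSG00000111247, chromosome 12 from 4538798 to 4560047, plus strand), had 38.0, 35.1 and 52.8 CPM in shNTC+Dox and 25.1, 30.8 and 22.8 CPM in shEHD1+Dox. RAD51AP1 fell by 0.68 on the log2 scale (standard error 0.17, adjusted p = 0.0318), and the call was lost without shEHD1+Dox replicate 1 or 3 (adjusted p = 0.107 and 0.104).

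The remaining genes of strand exchange did not pass. RAD51B, a subunit of the same complex, was the member with the highest fold change, at 8.44, 7.51 and 5.24 CPM in shNTC+Dox and 10.8, 9.07 and 11.9 CPM in shEHD1+Dox (log2 fold change 0.58, standard error 0.19, adjusted p = 0.0692). Its groups did not overlap, at a low level. RAD51C had a log2 fold change of -0.15 (95% interval -0.43 to 0.12) and RAD51D had -0.18 (-0.44 to 0.083). The strand annealing protein RAD52 was at -0.05 (-0.28 to 0.18), and the motor proteins RAD54L and RAD54B, which help in the search for homology, were at -0.11 (-0.31 to 0.093) and -0.14 (-0.41 to 0.12). RAD54L shares 26.2% of its exon bases with LRRC41 on the opposite strand, which rose (log2 fold change 0.27, adjusted p = 0.0147). Some of the reads of RAD54L could come from that gene. RAD54B shares 65.5% of its exon bases with FSBP on the same strand, which fell (log2 fold change -0.35, adjusted p = 0.0487), and the sum of both genes fell by 0.25 on the log2 scale (adjusted p = 0.0374), so the counting decides this value.

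All 11 Fanconi anemia genes had a log2 fold change below 0, against 49.9% of all genes tested, with a median of -0.26. Of the 11, 4 fell (36.4%, against 8.75% of all genes tested). However, FANCD2 was at 0.0014 with scaling by library size alone. FANCD2, FANCG and FANCL were above 0 without shNTC+Dox replicate 3 (0.098, 0.025 and 0.18). FANCA, the scaffold of the core complex (ENSG00000187741, chromosome 16 from 89726683 to 89816977, minus strand), had 75.5, 62.7 and 84.5 CPM in shNTC+Dox and 42.5, 48.2 and 46.8 CPM in shEHD1+Dox. Its level fell to 61.7% of the control mean (log2 fold change -0.70, standard error 0.11, adjusted p = 0.00441). The neighbour ZNF276 shares 27.4% of the FANCA exon bases and had a log2 fold change of -0.65 (adjusted p = 0.0692). FANCE, which joins the core complex to FANCD2 (ENSG00000112039, chromosome 6 from 35452338 to 35467104, plus strand), had 49.6, 47.8 and 45.9 CPM in shNTC+Dox and 35.8, 34.1 and 31.5 CPM in shEHD1+Dox. Here the library that stood apart held the lowest control value, and FANCE fell by 0.50 on the log2 scale (standard error 0.08, adjusted p = 0.00389).

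FANCI, the partner that is ubiquitinated together with FANCD2 (ENSG00000140525, chromosome 15 from 89243945 to 89317261, plus strand), had 171, 170 and 187 CPM in shNTC+Dox and 129, 145 and 132 CPM in shEHD1+Dox. It fell by 0.38 on the log2 scale (standard error 0.07, adjusted p = 0.00924), but reached an adjusted p of only 0.0503 or 0.05003 when replicate 1 or 3 of shEHD1+Dox was left out. UBE2T, the enzyme that carries the ubiquitin (ENSG00000077152, chromosome 1 from 202331544 to 202341984, minus strand), had 63.1, 61.7 and 63.9 CPM in shNTC+Dox and 53.8, 51.8 and 51.9 CPM in shEHD1+Dox. The difference was small but wider than the spread within either group (log2 fold change -0.26, standard error 0.06, adjusted p = 0.0260). This call was lost when any 1 library except shNTC+Dox replicate 3 was left out, with adjusted p-values of 0.0573 to 0.0940.

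FANCD2, the central target of the pathway, did not pass. It had 82.0, 79.1 and 105 CPM in shNTC+Dox and 86.6, 89.5 and 82.8 CPM in shEHD1+Dox, a log2 fold change of -0.04 (95% interval -0.28 to 0.20). FANCB, a core complex subunit, lay just outside the threshold at -0.40 (adjusted p = 0.0501). The adaptor FANCF had the same direction at -0.44 but a low level, 3.15 to 5.995 CPM over the 6 libraries (-0.91 to 0.021). FANCC and FANCG, further core subunits, were at -0.12 (-0.32 to 0.078) and -0.08 (-0.31 to 0.15), FANCL, the ubiquitin ligase of the core, at -0.05 (-0.43 to 0.34), and FANCM, the translocase that anchors the complex, at -0.16 (-0.37 to 0.056).

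**Figure D2:**
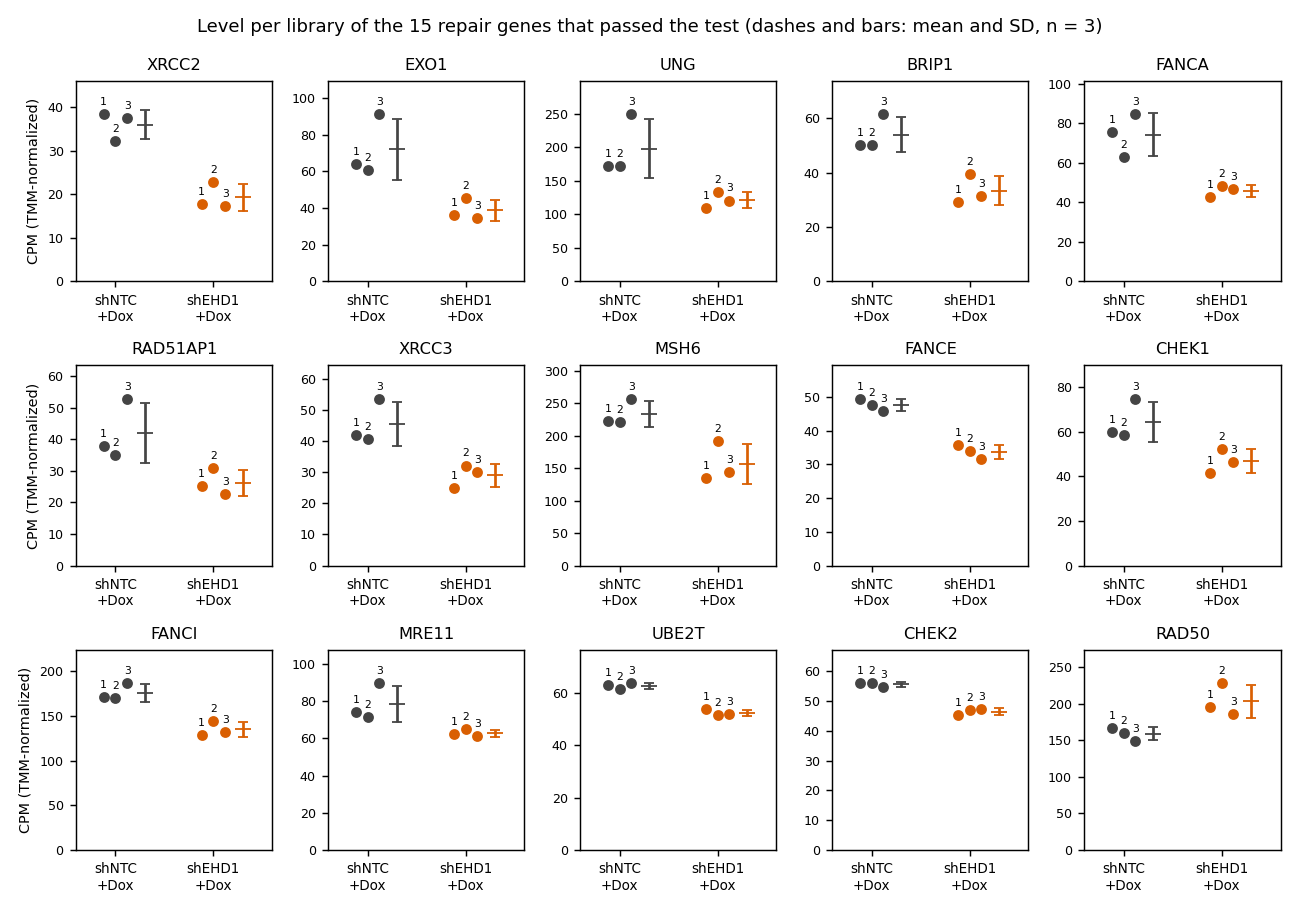
Level of the 15 members that passed the test in each library, in TMM-normalized CPM on linear axes from 0. Points are libraries numbered by replicate, and dashes and bars are the mean and SD (n = 3). In each of the 15 panels the shNTC+Dox and shEHD1+Dox libraries do not overlap. These genes were picked by the test between the same groups, so this adds no support. Of all genes tested, 19.4% lay lower and 19.9% higher without overlap.

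UNG, which opens base excision repair of uracil (ENSG00000076248, chromosome 12 from 109097597 to 109126725, plus strand), had 173, 172 and 249 CPM in shNTC+Dox and 110, 134 and 121 CPM in shEHD1+Dox. UNG fell to 61.3% of the control mean (log2 fold change -0.71, standard error 0.15, adjusted p = 0.0180), and the fall was 0.51 without shNTC+Dox replicate 3 (adjusted p = 0.00193). Without shEHD1+Dox replicate 1 or 3 the adjusted p was 0.0709 and 0.0635. MSH6, a subunit of the mismatch sensor (ENSG00000116062, chromosome 2 from 47695530 to 47810063, plus strand), had 222, 222 and 257 CPM in shNTC+Dox and 134, 192 and 144 CPM in shEHD1+Dox, with shEHD1+Dox replicate 2 well above the other two of its group. MSH6 fell by 0.58 on the log2 scale (standard error 0.13, adjusted p = 0.0215), and the call was lost without shNTC+Dox replicate 3, shEHD1+Dox replicate 1 or shEHD1+Dox replicate 3 (adjusted p = 0.0784, 0.0721 and 0.0848). PMS2, a nuclease subunit that acts after mismatch recognition, did not pass (log2 fold change 0.16, 95% interval -0.018 to 0.33). Its level was slightly higher in each shEHD1+Dox library than in any control.

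The PARP enzymes and SLFN11 did not pass. PARP1 had 494, 483 and 555 CPM in shNTC+Dox and 480, 536 and 486 CPM in shEHD1+Dox, a log2 fold change of -0.03 (95% interval -0.21 to 0.15). PARP2, its smaller relative, had 0.10 (-0.19 to 0.39), and without shNTC+Dox replicate 3 it rose by 0.28 on the log2 scale (adjusted p = 0.0173). SLFN11 had 346, 350 and 340 CPM in shNTC+Dox and 305, 327 and 302 CPM in shEHD1+Dox, a log2 fold change of -0.15 (-0.29 to -0.0067, adjusted p = 0.138), and its groups did not overlap.

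**Figure D3:**
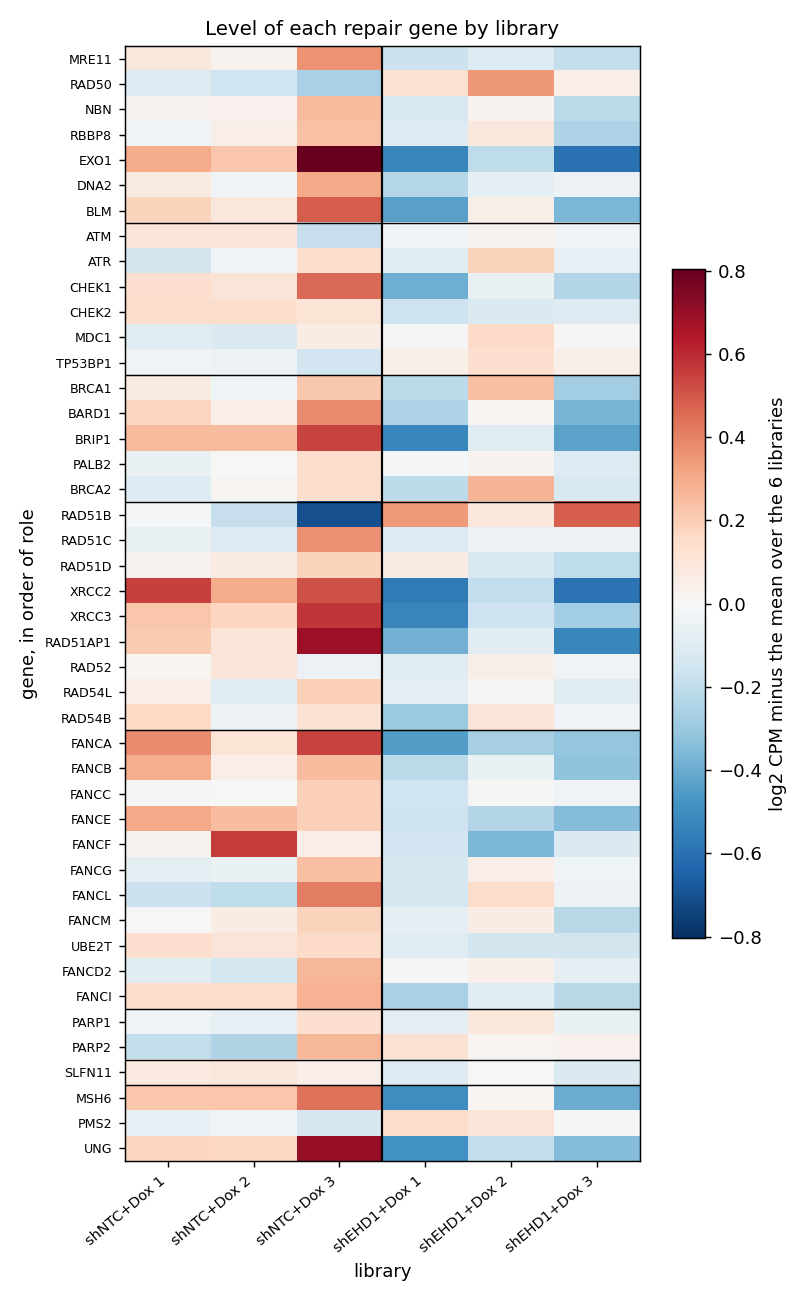
Log2 CPM of each member (rows, in order of role, split by black lines) in each library (columns), minus the gene's mean over the 6 libraries. Red is above and blue below that mean. The shNTC+Dox replicate 3 column is the highest for 27 members, and shEHD1+Dox replicates 1 and 3 are the lowest for 17 and 15. These counts were not made over all genes tested.

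The libraries of a group were not alike in these genes. Over the 14 members that fell, shNTC+Dox replicate 3 had the highest level in 11. Their lowest level was in shEHD1+Dox replicate 1 for 8, in replicate 3 for 5 and in replicate 2 for 1. The same was not counted over all genes tested that fell. Without shNTC+Dox replicate 3, 14 of the 15 calls remained and MSH6 was lost. Without shEHD1+Dox replicate 1, 5 calls remained: BRIP1, XRCC2, XRCC3, FANCA and FANCE, and these 5 passed in all 13 alternative fits. A left-out library also leaves fewer degrees of freedom.

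Members that work in one complex did not move together in all cases. Counts of a pair were divided within each library, which takes out any scaling between libraries, for 6 pairs of partners that were picked after their values had been seen, so no test was made. MRE11 had 44.6%, 44.5% and 60.1% of the counts of RAD50 in shNTC+Dox, against 31.8%, 28.4% and 33.0% in shEHD1+Dox. NBN had 67.1%, 69.9% and 87.7% of the counts of RAD50 in shNTC+Dox, against 51.3%, 48.9% and 50.9% in shEHD1+Dox. Thus, of the subunits of this complex, RAD50 took a larger share of the counts in each shEHD1+Dox library than in any control.

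In 3 further pairs 1 gene fell and its partner did not pass. XRCC2 had 284%, 233% and 250.0% of the counts of RAD51D in shNTC+Dox, against 129%, 190% and 152% in shEHD1+Dox. XRCC3 had 82.0%, 82.0% and 77.9% of the counts of RAD51C in shNTC+Dox, against 50.6%, 62.3% and 58.0% in shEHD1+Dox. FANCI ran at 209%, 215% and 179% of FANCD2 in shNTC+Dox, against 148%, 161% and 160% in shEHD1+Dox. Neither BARD1 nor BRCA1 passed, and BARD1 ran at 63.1%, 62.5% and 65.7% of BRCA1 against 57.3%, 50.3% and 55.1%. The log2 difference between groups was -0.67 for MRE11 to RAD50, -0.56 for NBN to RAD50, -0.72 for XRCC2 to RAD51D, -0.51 for XRCC3 to RAD51C, -0.35 for FANCI to FANCD2 and -0.24 for BARD1 to BRCA1. The groups did not overlap in any of the 6 pairs. Since the pairs were picked after their values had been seen, this count says nothing about partners in general. These ratios of counts depend on gene length and hold no information on protein amounts.

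**Figure D4:**
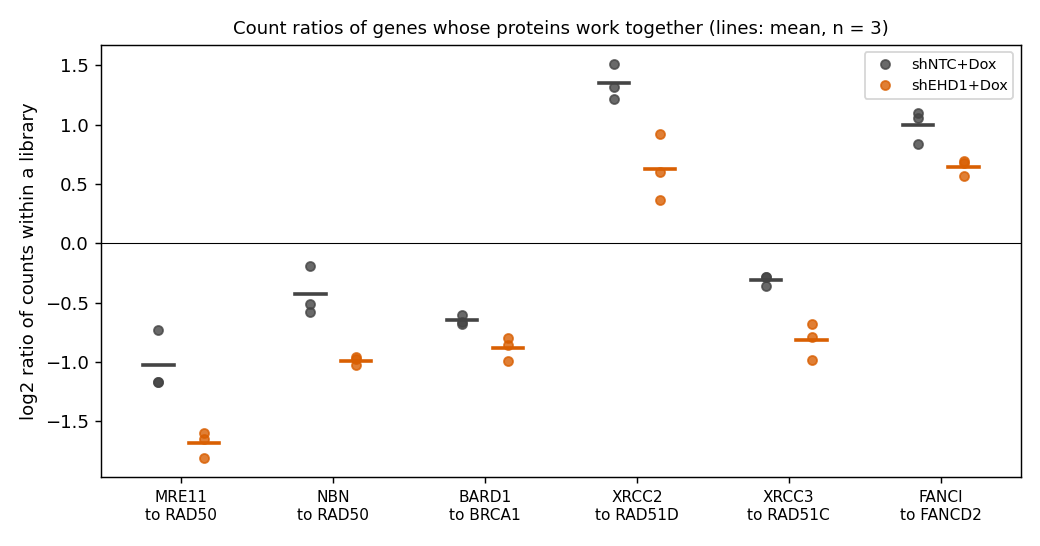
Log2 ratio of the counts of 2 partner genes within each library (y axis) for 6 pairs (x axis), shNTC+Dox in grey and shEHD1+Dox in orange. Points are libraries and lines are means (n = 3). The pairs were picked after their values had been seen, and in each of the 6 the shEHD1+Dox ratios lie below all shNTC+Dox ratios.

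Promoter sequence was compared because many S phase genes carry sites for E2F factors or CCAAT boxes near their start. Promoters of 40 of the 44 members were matched by symbol in RefSeq (GRCh38.p14, 250 bases before to 50 bases after the annotated start), 13 of them of genes that fell. Of each gene only the first listed promoter was used, which may not be the start most used in these cells. The window of BRCA1 lay wholly outside the span of that gene in GENCODE 44. The words TTTCCCGC, TTTGGCGC, TTTCGCGC and TTTGCCGC, which fit the E2F consensus, were searched on both strands. At least 1 was found in 7 member promoters (17.5%), against 3.31% of all 35116 promoters, 5.28% of those of 10991 tested genes and 12.5% of those of the further repair genes described below. Among the members, 4 of the 13 that fell held a word (30.8%) and 3 of the 26 that did not pass (11.5%), and of all tested genes that fell 6.31% held one. The word CCAAT, also on both strands, was in 20 of the 40 member promoters (50.0%), in 10 of the 13 that fell (76.9%) and in 10 of the 26 that did not pass (38.5%), against 34.6% of all promoters, 36.6% of those of tested genes, 46.6% of those of further repair genes and 41.4% of those of all tested genes that fell. TTTGAA or TTCGAA, the words of the cell cycle homology region, were in 15% of member promoters, 16.4% of all promoters and 11.4% of those of tested genes. They were as frequent in members that fell (2 of 13, 15.4%) as in those that did not pass (4 of 26, 15.4%). Further repair genes held them in 9.09% of promoters and all tested genes that fell in 10.5%. The promoter of RAD50 held none of these E2F words and no CCAAT word. No words of different kinds overlapped in the members. A match is only a match of letters, and the sets are small.

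The 7 member promoters with an E2F word are shown from 180 bases before to 30 bases after the start, read 5′ to 3′ on the strand of the gene, with the word in capitals. Positions of the first base of a word count from 1 at the start and from -1 just before it. They are shown because EXO1, XRCC2, FANCA and MSH6 fell while FANCC, FANCD2 and PMS2 did not pass, with the same kind of word. EXO1 (chr1:241848024-241848233, plus strand) has it at 5, XRCC2 (chr7:152676112-152676321, minus strand) at 22, FANCA (chr16:89816618-89816827, minus strand) at -172 and MSH6 (chr2:47782965-47783174, plus strand) at 4. FANCC (chr9:95317680-95317889, minus strand) has words at -172 and -46, FANCD2 (chr3:10026257-10026466, plus strand) at -2 and PMS2 (chr7:6009077-6009286, minus strand) at -43. XRCC3 (chr14:103715422-103715631, minus strand) is the member with the most CCAAT words, and its 4 words in this stretch, at -171, -108, -66 and -33, are in capitals.
EXO1: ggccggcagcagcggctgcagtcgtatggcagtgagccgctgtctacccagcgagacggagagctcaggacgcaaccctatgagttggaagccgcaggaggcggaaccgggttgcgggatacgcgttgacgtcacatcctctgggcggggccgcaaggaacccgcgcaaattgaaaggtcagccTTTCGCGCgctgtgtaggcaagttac
XRCC2: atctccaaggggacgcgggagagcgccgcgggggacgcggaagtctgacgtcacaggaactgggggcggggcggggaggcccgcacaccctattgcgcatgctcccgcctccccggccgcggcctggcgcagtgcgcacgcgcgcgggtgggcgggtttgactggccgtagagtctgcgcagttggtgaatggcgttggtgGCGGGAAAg
FANCA: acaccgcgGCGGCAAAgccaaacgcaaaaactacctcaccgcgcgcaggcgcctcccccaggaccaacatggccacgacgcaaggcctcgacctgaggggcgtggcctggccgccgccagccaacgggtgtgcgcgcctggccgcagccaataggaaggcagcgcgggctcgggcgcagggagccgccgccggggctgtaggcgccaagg
MSH6: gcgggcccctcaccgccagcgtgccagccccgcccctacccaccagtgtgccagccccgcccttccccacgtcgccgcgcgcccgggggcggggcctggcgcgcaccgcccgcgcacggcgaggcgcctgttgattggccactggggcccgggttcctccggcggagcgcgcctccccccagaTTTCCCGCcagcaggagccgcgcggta
FANCC: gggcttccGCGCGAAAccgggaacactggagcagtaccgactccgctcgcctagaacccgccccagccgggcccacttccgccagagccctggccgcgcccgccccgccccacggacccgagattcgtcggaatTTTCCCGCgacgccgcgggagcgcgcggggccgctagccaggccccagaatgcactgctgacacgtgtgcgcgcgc
FANCD2: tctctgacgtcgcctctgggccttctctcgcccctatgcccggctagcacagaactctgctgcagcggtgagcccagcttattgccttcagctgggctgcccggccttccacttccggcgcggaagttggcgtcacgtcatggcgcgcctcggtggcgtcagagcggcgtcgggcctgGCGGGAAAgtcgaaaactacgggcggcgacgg
PMS2: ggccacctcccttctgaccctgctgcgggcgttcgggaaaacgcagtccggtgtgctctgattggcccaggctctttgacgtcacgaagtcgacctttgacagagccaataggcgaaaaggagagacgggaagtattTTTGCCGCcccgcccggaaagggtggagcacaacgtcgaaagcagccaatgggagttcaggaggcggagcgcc
XRCC3: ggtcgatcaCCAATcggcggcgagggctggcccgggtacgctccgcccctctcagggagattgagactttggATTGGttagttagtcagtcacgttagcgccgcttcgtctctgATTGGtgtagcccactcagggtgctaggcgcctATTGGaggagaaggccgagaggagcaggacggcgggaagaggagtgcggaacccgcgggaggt

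Other genes of DNA repair changed in both directions. Of 103 further repair genes, all tested, 19 fell (18.4%, against 8.75% of all genes tested) and 8 rose (7.77%, against 8.59%), none by 2-fold, and the median log2 fold change was -0.02. This list too was chosen with earlier results of these data known, and its difference from the members was not tested. In recombination outside the members, 7 of 30 fell and 1 rose, and in crosslink repair 4 of 15 fell and 2 rose. Of the genes of the replication stress checkpoint 3 of 12 fell and 1 rose, and of base excision repair 3 of 14 fell. None of 11 nucleotide excision repair genes passed in edgeR (3 had an unadjusted p under 0.05). In the list of end joining, the route that religates breaks without a template, 2 of 18 fell and 3 rose. This list was wide: it also held SHLD3, which fell and protects ends from resection, and the ligase LIG3, which rose. Over all 103 further repair genes, the 19 that fell became 6 or 7 when replicate 1 or 3 of shEHD1+Dox was left out. They became 12 without shNTC+Dox replicate 1. The 8 that rose became 2 to 5 when any 1 library except shNTC+Dox replicate 3 was left out.

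Among these, HROB, which recruits a helicase to recombination sites, fell from 7.79, 10.6 and 10.7 CPM to 5.87, 4.21 and 4.91 CPM (log2 fold change -0.95, adjusted p = 0.00985). SHLD3, a shieldin subunit that protects ends from resection, fell by 0.95 (adjusted p = 0.0128) at 1.94 to 4.15 CPM. The phosphatase CDC25A, which CHEK1 controls, fell from 71.7, 64.8 and 91.2 CPM to 31.9, 48.5 and 39.1 CPM (-0.93, adjusted p = 0.0107), and FEN1, the flap nuclease, fell by 0.72 (adjusted p = 0.0457). Of the genes that rose, XRCC4 and POLL act in end joining. XRCC4, the scaffold of ligase 4, rose from 9.23, 7.87 and 10.2 CPM to 13.4, 14.7 and 14.4 CPM (0.64, adjusted p = 0.0114), and POLL, a gap-filling polymerase, rose by 0.54 (adjusted p = 0.00443). LIG3, a ligase of single-strand break repair counted above with end joining, rose by 0.52 (adjusted p = 0.00438), with 44.8% of its exon bases shared with another gene. MSH3, which takes the place of MSH6 in the other mismatch sensor, rose by 0.37 (adjusted p = 0.0373), while MSH6 fell.

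Markers of proliferation moved in both directions beside the repair genes. Of 18 such genes, against 8.75% of all genes that fell and 8.59% that rose, 5 fell (CCNE2, RRM2, MCM2, MCM6 and TOP2A) and 4 rose (MKI67, BUB1, CCNB1 and CCNB2). CCNE2, a cyclin of the G1 to S step, fell by 1.30 on the log2 scale (adjusted p = 0.0307), and RRM2, a subunit of ribonucleotide reductase, fell by 0.69 (adjusted p = 0.0304). CDC6, a factor that licenses replication origins, had a log2 fold change of -0.73 and did not pass (adjusted p = 0.0510). CCNB1, the mitotic cyclin, rose by 0.38 (adjusted p = 0.0151). These counts rested on single libraries: none of the 18 fell without shEHD1+Dox replicate 1 or 3, and 3 fell without shNTC+Dox replicate 1 or 2. The number that rose was 0 without shEHD1+Dox replicate 1, 2 without replicate 3 of that group, and 1, 1 and 6 without shNTC+Dox replicates 1, 2 and 3. In bulk RNA, fewer cells in a phase and less RNA per cell cannot be told apart, and the part of cell cycle phase in the members' values was not tested.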

How the data were processed

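The authors deposited 1 table of whole-number counts per gene, not normalized, for the 6 libraries (TruSeq RNA v2 kit, paired ends, hg38). Per the labels' processing notes reads were aligned with STAR 2.7.3a, while the methods of the study name hisat2 and StringTie, and how the counts were derived is not given in the sources used here. TMM scaling and the robust quasi-likelihood test of edgeR 4.0.16 (R 4.3.3) were applied to 16785 genes, those that had 10 or more counts in 3 or more libraries, and p-values were adjusted over all of them by Benjamini-Hochberg, with a threshold of 0.05. The study's methods called genes at an adjusted p under 0.05 and 2-fold with DESeq2; DESeq2 1.42.0 is an alternative here. Intervals are 95% t intervals from the same fit. The common biological coefficient of variation was 14.97%, and the median standard error of a log2 fold change was 0.11 for the members and 0.13 for all genes.

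Gene coordinates, exons and shared exon bases came from GENCODE 44, in which 99.5% of the gene identifiers were found, and promoters from RefSeq. The kit does not keep strand, so 9 members with over 10% of exon bases shared with another gene are uncertain to that extent. The members and all gene lists were chosen with earlier results of these data known. Named genes were all members, the 4 further repair genes with the largest falls and the 4 with the largest rises among those that passed, EHD1, and 2 proliferation markers with the largest changes; RRM2 and CCNB1 were added after their values were seen. Alternatives were other normalizations, other filters, DESeq2, the replicate number as a block, and each library left out in turn. Sums with overlapping genes and ratios of partners were added after seeing the data. The test was also run on simulated data, and the outcome is not reported here. The authors' own comparisons were not used.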

Additional observations from a re-analysis of the deposited data

How the results depend on the processing

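All 15 calls kept their direction in every alternative fit, and losses came mainly with fewer libraries. The number of members that fell ran from 5 to 13 and that which rose from 0 to 2 when 1 library was left out, with 1322 to 3616 genes called in all, 293 to 452 at 2-fold, and 6 to 18 further repair genes lower and 2 to 10 higher. DESeq2 called 17 members lower and 2 higher, RAD51B being the added one.

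No pairing by replicate number was seen: deviations of same-numbered libraries had correlations of 0.072, -0.0593 and -0.0448. Those of other-numbered libraries ran from -0.0817 to 0.11. With so few libraries these values cannot decide whether the libraries were paired. A fit with the replicate block called 1766 genes, and in it 9 members fell and 1 rose, and 9 further repair genes fell and 5 rose; the calls lost were MRE11, CHEK1, CHEK2, RAD51AP1 and UBE2T.

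Signs changed for members that did not pass. With library size as the only scaling, ATM was at 0.0197, BRCA2 at 0.0094, FANCD2 at 0.0014 and PARP1 at 0.012. With 1 library left out, ATM ran from -0.11 to 0.028, ATR from -0.065 to 0.10, BRCA2 from -0.19 to 0.064, RAD51C from -0.24 to 0.010, FANCG from -0.14 to 0.025, FANCL from -0.16 to 0.18, FANCD2 from -0.11 to 0.098 and PARP1 from -0.078 to 0.036. The cause was not tested. Falls as small as those of MRE11, CHEK2 and UBE2T passed in only 6 of 13 alternatives each, which include the fits with 1 library left out. With all libraries kept, these calls were lost without a filter on low counts and with the replicate block. That of MRE11 was also lost with library size as the only scaling.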
